A study of Rattus norvegicus with 10 samples.

Results

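The genes described here are 8 that mark microglia, the resident macrophages of the brain: *Tyrobp*, *Aif1*, *Csf1r*, *C1qa*, *C1qb*, *Cx3cr1*, *P2ry12* and *Trem2*. They were taken as the probe sets (groups of short probes read together as a transcript's signal) whose only gene symbol in the platform annotation was 1 of these names. All 8 genes were found, on 11 of 31099 probe sets, among 14218 named genes on the array. The study measured brain RNA of male Wistar rats, which are outbred, and its question was what mild to moderate calorie restriction (CR, less food without malnutrition) does to gene expression. The rats were bought at 5 weeks of age and were 6 weeks old when the diets began. They ate a purified powdered diet (AIN-93G): the control rats were given the whole of the intake recorded beforehand, and in the CR groups that amount was cut by 5, 10, 20 or 30%. The groups shared strain, sex, age and a 16 h fast before sampling, no allele is given for any of them, and all rats were anaesthetised with diethyl ether on the last day. Per the study's methods the tissue was the hypothalamus area, and each group's array was hybridised with RNA pooled from 5 rats, so that no group has a second array. Only the 5 arrays taken after 1 week of diet were used: the 1 month rows did not follow the probe set identifiers (correlation of log2 signals with the 1 week arrays 0.036 to 0.052 in 25 pairs).

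Microglia survey the brain, prune synapses and clear dying cells and debris. CSF1R is the receptor on which their survival depends, and CSF1 and IL34 are its ligands. TREM2 binds lipids and lipoproteins and signals through the adaptor TYROBP (DAP12), whose phosphorylated tail recruits the kinase SYK. CX3CR1 receives the neuronal chemokine fractalkine, P2RY12 senses ADP from injured cells, and C1QA and C1QB are chains of C1q, which starts the classical complement cascade. AIF1 (IBA1), an actin-binding protein, is the usual stain for these cells. Most of these genes are also expressed by other macrophages, and in a piece of tissue fewer cells of a type and less RNA per cell cannot be told apart.

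Of the 8 genes, *Tyrobp* alone passed the test between CR and control after 1 week, and it rose by 0.92 on the log2 scale, a 1.89-fold increase. *Aif1* was above control on all 4 CR arrays and *C1qa* below it on all 4, but neither passed. *Csf1r*, *C1qb* and the brighter probe set of *P2ry12* had differences of 0.10, -0.14 and -0.00. The dimmer probe set of *P2ry12* was at -2.47, below control on all 4 CR arrays, but was below the signal filter and not tested. *Cx3cr1* and *Trem2* were too dim to be tested. The test was limma's moderated comparison of the 4 CR arrays with the control array, fitted over 15521 probe sets whose mean log2 signal was above the median, with Benjamini-Hochberg adjustment. It called 14.5% of all tested probe sets higher in CR and 11.0% lower, so 1 higher and 0 lower among the 6 tested genes is near the background. At an unadjusted p under 0.05 there were 2 higher (*Tyrobp* and *Aif1*) and 1 lower (*C1qa*). The levels of the 11 probe sets are shown in the plot of signals by diet.

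**Figure D1:**
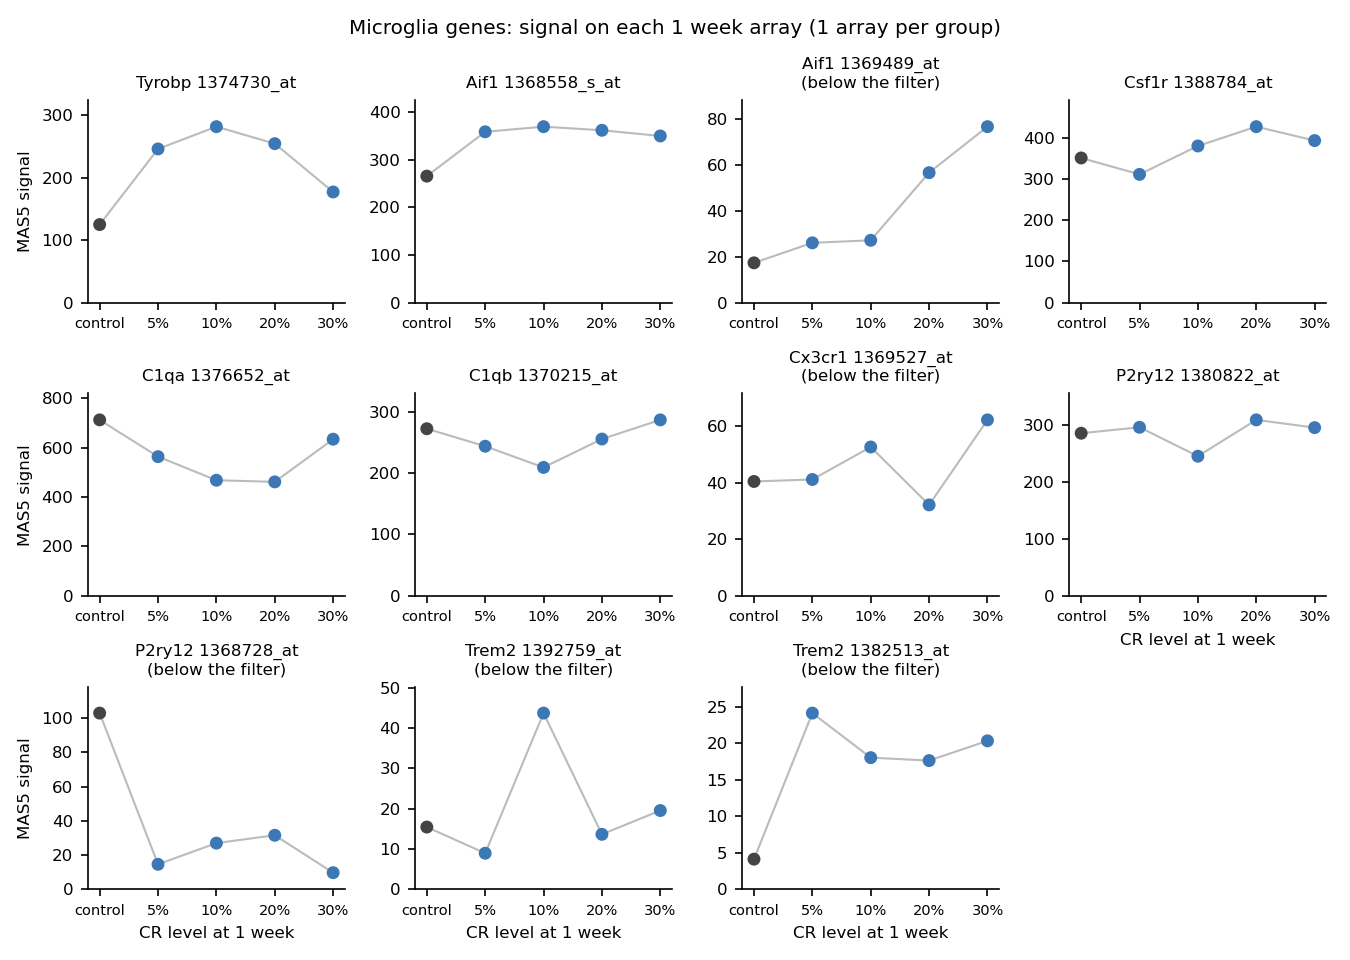
Signal (MAS5, linear scale from 0, a separate axis for each panel) of each of the 11 probe sets of the 8 microglia genes against the level of calorie restriction at 1 week. Each point is 1 array of pooled RNA, dark for control and blue for CR, and lines only join the points; *Tyrobp* has its lowest point, 125.0, in the control.

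The control array stood apart from the others, which touches every difference below. Its log2 signals correlated with those of the CR arrays at 0.852 to 0.874, and those of the CR arrays with each other at 0.912 to 0.922. Signals under 10 were 24.0% of its values and 11.7 to 14.4% of theirs. Its poly-A spike-ins, bacterial transcripts added before labelling, were higher on 12 of 12 probe sets, with a median log2 difference of 1.29. Several of these probe sets read the same transcript. The log2 ratio of 3' to 5' signal of GAPDH, which reflects RNA integrity and labelling, was 0.19 on the control array and 0.40 to 0.79 on the CR arrays. The part of these differences in the results was not tested. The lone control was assumed to vary as the CR arrays do, so the diet and that pool or array cannot be told apart. The 4 CR levels are different diets, so the p-values rest on the spread among pools fed differently. In the text, a difference is the mean log2 signal of the 4 CR arrays minus that of the control array, with the SD over those 4 arrays.

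*Tyrobp* encodes the adaptor through which TREM2 and several other receptors of myeloid cells signal. Its signal was 125.0 in the control and 246.1, 281.8, 254.6 and 177.2 at 5, 10, 20 and 30% CR. All 4 CR arrays lay above the single control array, as they did for 37.1% of all tested probe sets, and the 30% array lay closest to the control. The difference was 0.92 ± 0.29 (SD, n = 4; 95% interval 0.35 to 1.49; limma adjusted p = 0.0262), and 11.2% of all tested probe sets had a larger one. The call was lost when arrays were scaled to equal medians (0.48, adjusted p = 0.138) and when limma was run without its intensity trend (0.92, adjusted p = 0.0689). It held when any 1 CR array was left out, with differences of 0.84 to 1.06. Across the CR levels the log2 signal had a slope of -0.20 per 10% of restriction (SE 0.10, limma adjusted p = 0.999).

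**Figure D2:**
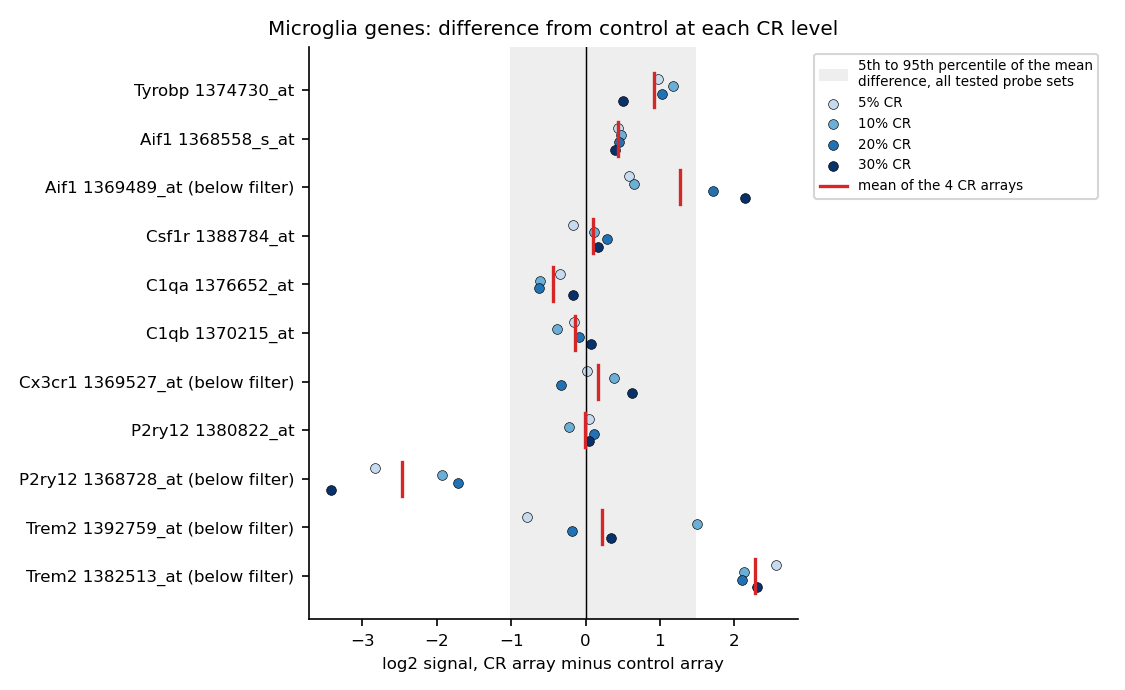
Log2 signal of each CR array minus that of the control array for the 11 probe sets, with circles darker at higher CR and a red bar at the mean of the 4 arrays. The grey band runs from the 5th to the 95th percentile of the mean difference over all tested probe sets, -0.996 to 1.48, and all 6 tested probe sets have their means inside it.

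The TREM2 receptor itself was measured by a pair of dim probe sets that were not tested. Probe set 1392759_at read 15.4 in the control and 8.9, 43.7, 13.6 and 19.5 at 5, 10, 20 and 30% CR. Probe set 1382513_at read 4.1 in the control and 24.1, 18.0, 17.6 and 20.3 at those levels. Only the second had every CR array above the control, by 2.27 ± 0.21 (SD, n = 4), from a control signal under 10. Fitted with no filter on low signals, their adjusted p by limma was 0.899 and 0.0679. Both are near background, where MAS5 signals are noisy, so no direction is read for *Trem2*.

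TYROBP has relatives and effectors on the array. Of 19 listed partners and signalling genes, 13 were on the array and 6 were tested. Of the 6, 4 rose and 0 fell, against 14.5% higher and 11.0% lower over all tested probe sets. Their median difference was 1.01, against 0.03 over all tested probe sets. The count and median are partly set by the filter, which a dim gene could pass through its CR arrays alone, and nothing is read from them. *Fcer1g*, the Fc receptor gamma chain and an adaptor of the same type, had a signal of 555.0 in the control and 857.4, 939.4, 872.0 and 824.2 at 5, 10, 20 and 30% CR. This is a difference of 0.65 ± 0.08 (SD, n = 4; limma adjusted p = 0.00544), lost with median scaling (0.22, adjusted p = 0.246). *Fcer1g* and *Tyrobp* had the same order of arrays, highest at 10%, then 20, 5 and 30%, and lowest in the control. This order was not particular to the adaptors. The brighter probe set of *Aif1*, 1368558_s_at, and the *B2m* probe set 1367595_s_at had it too. So did *Mrc1*, *Pf4* and *F13a1*, genes of macrophages along vessels and in the meninges. *Lyve1*, the other tested gene of that list, and the 5 genes of that list below the filter did not have it.

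The other 3 were dim in the control. The kinase gene *Syk* rose by 2.31 ± 0.22 from a signal of 24.0 (adjusted p = 0.00108) to 103.8 to 140.4. *Vav1*, a signalling protein of blood cells, rose by 2.28 ± 0.17 from 17.5 (adjusted p = 0.00248). *Inpp5d*, the phosphatase SHIP1 that opposes PI3-kinase signals, rose by 1.36 ± 0.09 from 40.5 (adjusted p = 0.00912), a call lost with quantile scaling (0.94, adjusted p = 0.0570). Dim genes were mostly higher in CR: of 1441 tested probe sets with a control signal under 50, 49.5% were called higher and 0% lower. Where the control signal was 100 or more, 10.5% were higher and 15.4% lower, and *Tyrobp* and *Fcer1g* belong to that class (these limits were set after values were seen). The filter also acts here, since it averages 4 CR arrays with 1 control array and a gene dim in the control passed only when the CR arrays were higher. With control and CR weighted equally *Vav1* was not kept, and 3 genes of the list were higher. *Sirpa*, an inhibitory receptor of macrophages, was at -0.26 (adjusted p = 0.177). *Hcst* (DAP10), the neighbour of *Tyrobp* on chromosome 1 of GRCr8, read 2.4 in the control and 10.8 to 15.9 in CR, below the filter.

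**Figure D3:**
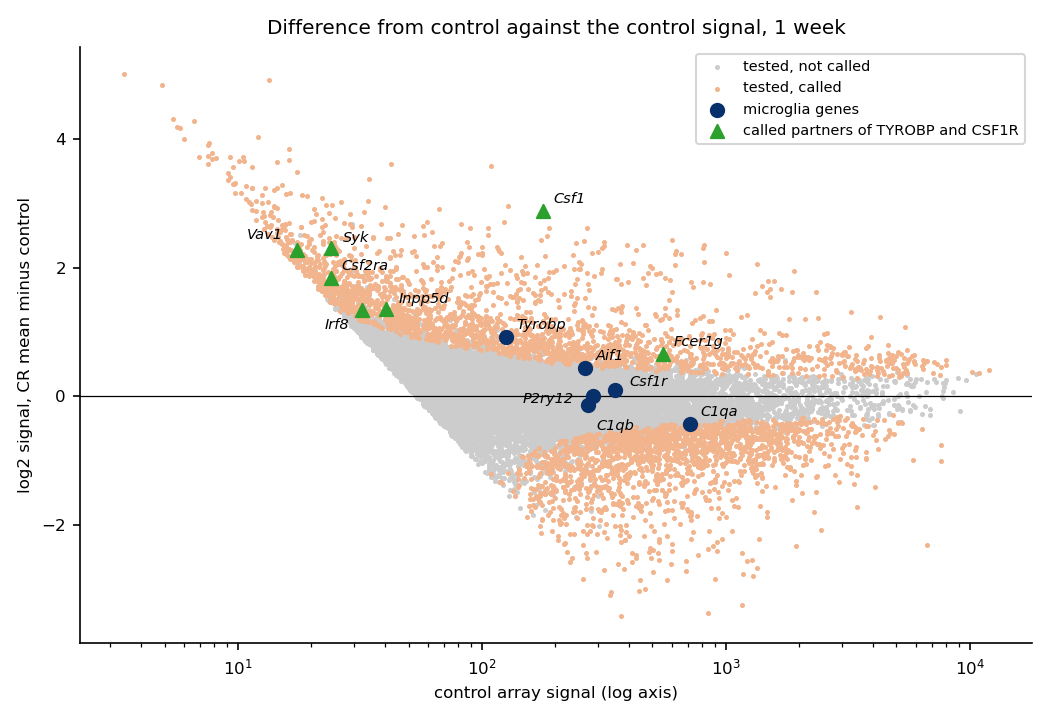
Difference between CR and control (log2) against the control signal (log axis) for the 15521 tested probe sets, grey if not called and orange if called. Blue circles are the 6 tested microglia genes, green triangles the called partners of TYROBP and CSF1R, and the slanted left edge is the filter; *Tyrobp*, *Fcer1g* and *Csf1* lie right of a control signal of 100 and the other triangles left of 50.

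*Aif1* encodes IBA1. Its brighter probe set, 1368558_s_at, read 265.2 in the control and 358.1, 368.9, 361.3 and 349.4 at 5, 10, 20 and 30% CR. All 4 CR arrays were above the control and close to each other. The difference was 0.44 ± 0.03 (SD, n = 4; 95% interval 0.10 to 0.78) and missed the threshold, with a limma adjusted p of 0.0603. It passed with quantile scaling (0.52, adjusted p = 0.0436), cyclic loess (0.51, 0.0376) and the stricter signal filter (0.44, 0.0481), and was 0.00 with median scaling. The dimmer probe set, 1369489_at, read 17.3, 26.0, 27.1, 56.5 and 76.5 from control to 30% CR. Its 20 and 30% arrays stood above the other CR arrays, which the brighter probe set did not show.

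*Csf1r* itself did not pass, and its ligand *Csf1* was the gene of its list with the largest difference. The signal of *Csf1r* was 351.2 in the control and 311.4, 380.3, 427.2 and 393.4 at 5, 10, 20 and 30% CR. The control lay inside the range of the CR arrays, and the difference was 0.10 ± 0.19 (SD, n = 4; 95% interval -0.33 to 0.52; limma adjusted p = 0.745), or -0.34 with median scaling. *Csf1*, the cytokine that keeps microglia and other macrophages alive, read 177.9 in the control and 1052.9, 1148.1, 1706.3 and 1413.3 in CR on its brightest probe set, 1380582_at. That is a rise of 2.88 ± 0.31 (SD, n = 4; limma adjusted p = 1.96e-04), past the threshold under all 13 alternatives (2.44 to 2.98).

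The other 3 probe sets of *Csf1* did not all follow. Probe set 1369354_at also rose, by 1.79 from a signal of 27.2 (adjusted p = 0.0250). Probe sets 1380583_s_at and 1379631_at had differences of 0.40 and -0.48 (adjusted p = 0.335 and 0.585). *Il34*, the ligand made mainly by neurons in the brain, read 243.8 in the control and 136.7 to 205.4 in CR, a difference of -0.45 (adjusted p = 0.224). All its CR arrays were below the control.

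Of the 10 genes listed as ligands, relatives and transcription factors of the CSF1R axis, 7 were on the array and 5 were tested, 3 of them higher and 0 lower, with a median of 1.33, against 14.5% higher over all tested probe sets. With control and CR weighted equally in the filter *Csf2ra* was not kept and 2 were higher, so nothing is read from the count. Beside *Csf1* these were *Irf8*, a transcription factor of the myeloid lineage, and *Csf2ra*, a receptor chain for the cytokine GM-CSF. *Irf8* rose by 1.33 from a signal of 32.2 (adjusted p = 0.0349), a call lost under 6 of 12 alternatives, among them leaving out the 5, 20 or 30% array (adjusted p = 0.0652, 0.0681 and 0.0575). *Csf2ra* rose by 1.84 from 24.1 (adjusted p = 0.0192) and lost the call with quantile scaling (1.20, adjusted p = 0.121). Both had a control signal under 50, where higher calls were frequent.

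The chains of C1q were at or below control. *C1qa* read 712.2 in the control and 563.4, 467.9, 461.3 and 634.0 at 5, 10, 20 and 30% CR, so every CR array was lower. Its difference was -0.43 ± 0.22 (SD, n = 4; 95% interval -0.86 to -0.01; limma adjusted p = 0.119). It passed with median scaling (-0.87, adjusted p = 0.00732) and without the 30% array (-0.52, adjusted p = 0.0419). *C1qb* read 272.1 in the control and 243.6, 209.1, 255.3 and 286.5 in CR, with the control inside the range of the CR arrays. Its difference was -0.14 ± 0.19 (SD, n = 4; 95% interval -0.60 to 0.32; adjusted p = 0.660). *C1qc*, the remaining chain, read 265.2 in the control and 261.9, 228.4, 192.9 and 268.3 in CR (-0.17, adjusted p = 0.612). In all 3 chains the lowest array was 10 or 20% CR.

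*C1qb*, *C1qc* and *C1qa* lie side by side on chromosome 5 of the rat assembly GRCr8. The 250 bases before the RefSeq starts of *C1qa* (chr5:154419934-154420183, minus strand) and *C1qb* (chr5:154407828-154408077, minus strand) are shown because these chains lie in 1 cluster and differ in the exact letters GAGGAA. Capitals mark GAGGAA, or TTCCTC on the other strand, a string found in sites that the macrophage factor PU.1 can bind. Shorter or other forms of such sites were not searched.

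C1qa: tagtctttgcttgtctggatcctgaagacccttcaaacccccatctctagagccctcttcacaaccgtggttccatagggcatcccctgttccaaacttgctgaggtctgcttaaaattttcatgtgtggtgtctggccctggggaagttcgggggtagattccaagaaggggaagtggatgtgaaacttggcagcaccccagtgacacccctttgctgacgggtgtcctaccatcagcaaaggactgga

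C1qb: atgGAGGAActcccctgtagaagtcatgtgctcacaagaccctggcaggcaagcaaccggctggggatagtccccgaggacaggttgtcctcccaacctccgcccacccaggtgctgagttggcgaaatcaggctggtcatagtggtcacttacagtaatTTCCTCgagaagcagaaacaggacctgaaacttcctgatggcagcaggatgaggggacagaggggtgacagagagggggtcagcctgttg

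The *C1qb* sequence holds 2 matches, 247 and 90 bases before the start, and the *C1qa* sequence holds none. Of the 5 members in the RefSeq promoter table, 3 (*C1qb*, *Csf1r* and *Trem2*) hold GAGGAA and *C1qa* and *Cx3cr1* do not, against 23.3% of all 33469 promoters. The longer motif GAGGAAGT (ACTTCCTC on the other strand), which contains it, was in 0 of the 5 and in 2.04% of all promoters. These are matches of letters and not measured sites.

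Of 17 other complement components and receptors, 12 were on the array and 7 were tested, of which 0 rose and 1 fell, with a median of -0.24. Over all tested probe sets 14.5% rose and 11.0% fell. The proteases *C1r* and *C1s*, which join C1q in the C1 complex, were at -0.24 and -0.10 (adjusted p = 0.538 and 0.784). *Serping1*, the C1 inhibitor, read 273.1 in the control and 175.7, 92.7, 121.9 and 155.4 at 5, 10, 20 and 30% CR. The log2 signal fell by 1.04 (limma adjusted p = 0.0426, with an SD of 0.41), a call lost without the 20% array (-1.003, adjusted p = 0.0676), with quantile scaling (-0.99, 0.0706) and without the intensity trend (-1.04, 0.0950).

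*P2ry12* encodes the ADP receptor that marks microglia in the resting state. Its brighter probe set, 1380822_at, read 285.2 in the control and 295.6, 244.9, 308.6 and 295.0 at 5, 10, 20 and 30% CR. The control lay inside the CR range and the difference was -0.00 ± 0.15 (SD, n = 4; 95% interval -0.41 to 0.41; limma adjusted p = 0.996), with a sign that turned under quantile and loess scaling (0.07 and 0.06). The dimmer probe set, 1368728_at, read 103.0 in the control and 14.5, 26.9, 31.5 and 9.6 in CR. Its CR arrays were all far lower, by -2.47 ± 0.80 (SD, n = 4), but it was below the filter, and with no filter it missed the threshold (adjusted p = 0.0534). The probe sets of this gene therefore disagreed, and all CR arrays of the second were under 50.

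*Cx3cr1*, the fractalkine receptor, was below the filter on its only probe set. It read 40.5 in the control and 41.2, 52.7, 32.2 and 62.3 at 5, 10, 20 and 30% CR, with the control inside that range. Its ligand *Cx3cl1*, made by neurons, read 767.8 in the control and 673.2, 554.2, 668.1 and 711.7 in CR (-0.24, adjusted p = 0.286). All 4 CR arrays of the ligand were below the control. Of the 11 genes of fractalkine and purine signalling beside the members, all 11 were on the array and 6 were tested, with 0 higher, 0 lower and a median of -0.12 by limma (0 higher and 1 lower at an unadjusted p under 0.05). Over all tested probe sets 14.5% were called higher and 11.0% lower.

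Other genes of resting microglia and the wider myeloid program moved in both directions. For comparison, 14.5% of all tested probe sets were called higher and 11.0% lower. Of 17 further genes of resting microglia, 13 were on the array and 9 tested, with 0 higher, 1 lower and a median of -0.20. The gene that fell was *Rnase4*, a secreted ribonuclease that other cells also make, at -0.71 (adjusted p = 0.0132; -0.71, 0.0750 without the intensity trend), and its second probe set was at -1.74. Of 21 TREM2 ligands and genes of the lipid and phagocytic response, 20 were on the array and 15 tested, 2 higher and 2 lower, with a median of -0.06. *Clu*, an apolipoprotein that TREM2 binds and that astrocytes make in quantity, fell by 1.00 (adjusted p = 8.88e-04), from 5834.3 to 2579.0 to 3269.4. *Cd9*, a tetraspanin also abundant in myelinating cells, fell by 1.14 (adjusted p = 6.75e-04). *Lpl*, lipoprotein lipase, rose by 1.44 from a signal of 37.6 (adjusted p = 0.0167; lost with median and quantile scaling, 0.0501 and 0.105), and *Fabp5*, a fatty acid binding protein, rose by 0.42 (adjusted p = 0.0155; -0.02 with median scaling, and lost without the intensity trend, 0.116). *Apoe*, the main brain apolipoprotein and a TREM2 ligand, had a difference of -0.16 (adjusted p = 0.254).

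Of 24 general myeloid and lysosomal genes, all 24 were on the array and 14 tested, 1 higher and 1 lower, with a median of 0.19. The shares over all tested probe sets were 14.5% higher and 11.0% lower. *Ctsb*, a lysosomal protease found in most cells, fell by 0.62 (adjusted p = 0.00288). *Cyba*, a subunit of the phagocyte NADPH oxidase, rose by 0.54 (adjusted p = 0.0477) and lost the call under 7 of 13 alternatives, among them leaving out the 5, 10 or 20% array (adjusted p = 0.0858, 0.0714 and 0.0830). Of 12 antigen presentation genes, 8 were tested, 1 rose and 0 fell, with a median of 0.22. The gene that rose was *B2m*, the light chain of class I molecules, at 0.30 (adjusted p = 0.0409), but its second probe set was at -0.80 (adjusted p = 0.00850). The *B2m* rise was lost under 8 of 13 alternatives, among them leaving out the 5, 10 or 20% array (adjusted p = 0.0869, 0.0799 and 0.0646), and its sign turned with median scaling (-0.13).

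Cytokines and effectors of activated microglia were mostly too dim to test: of 22 listed, 21 were on the array and 6 were tested. Of the 6, 1 was higher and 1 lower, against 14.5% higher and 11.0% lower over all tested probe sets. *Ccl5*, a chemokine, rose by 2.44 from a signal of 20.0 (adjusted p = 9.47e-04), a level at which 49.5% of tested probe sets were higher. It was not kept by the filter with control and CR weighted equally, which left 0 higher. In the same list *Nfkb1*, a subunit of the transcription factor NF-kappa-B, fell by 1.32 (adjusted p = 0.00740). The median of this list was -0.10.

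**Figure D4:**
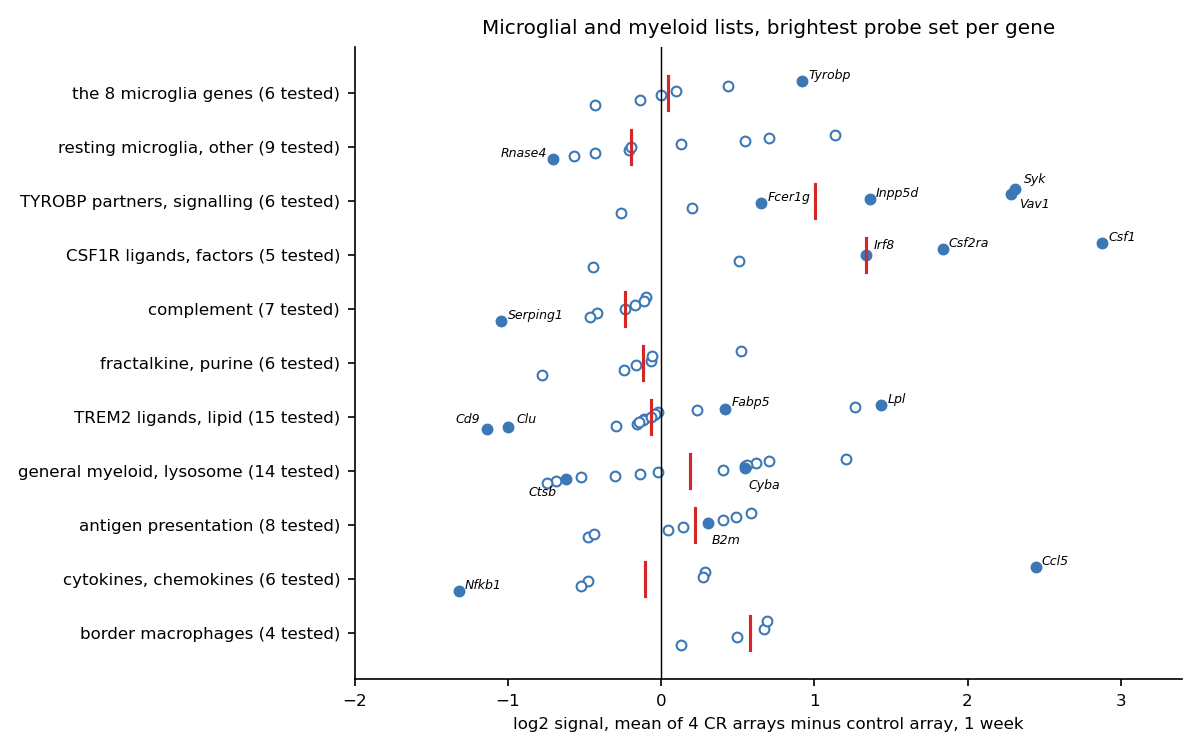
Mean log2 signal of the 4 CR arrays minus that of the control for the tested genes of the 8 microglia genes and 10 microglial and myeloid lists, on the brightest probe set of each gene; lists of blood, glial, neuronal and endothelial genes are not drawn. Filled circles passed the test and are named, open circles did not, and red bars are list medians, which among these lists go from -0.24 for complement to 1.33 for the CSF1R list.

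Genes that also mark other macrophages and blood cells were read on the same arrays. The summed signal of the 8 microglia genes was 2067 in the control and 2049 to 2217 in CR, so the sums overlapped. For border macrophages, those along vessels and in the meninges, the sum of 9 genes was 424.0 in the control and 566.4 to 728.7 in CR. The 4 tested had a median difference of 0.58, and 0 of them passed by limma (1 higher and 0 lower at an unadjusted p under 0.05). The sum of 11 leukocyte genes was 70.3 in the control and 286.2 to 1098.1 in CR, with 1 gene tested (*S100a9*). The other 10 were below the filter, and most of them had a control signal under 10. Signals that low were more frequent on the control array, 24.0% against 11.7 to 14.4% on the CR arrays. No rise in leukocytes is therefore read from this sum. The neutrophil genes *S100a8* and *S100a9* were highest on the 10% array: *S100a9* read 17.1 in the control and 29.2, 626.3, 81.4 and 43.3 at 5, 10, 20 and 30% CR (limma adjusted p = 0.198). *S100a8* read 6.4 in the control and 8.6, 235.9, 51.0 and 15.8 in CR, below the filter.

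Of the red cell genes, 4 were on the array and 2 were tested, and neither passed. *Hbb*, the haemoglobin beta chain and the bulk of the red cell sum, read 5044.2 in the control and 6892.5, 7934.7, 6238.7 and 5312.3 at 5, 10, 20 and 30% CR (0.37, adjusted p = 0.148). *Alas2*, the heme synthesis enzyme of red cell precursors, read 111.9 in the control and 54.7, 96.3, 72.4 and 57.1 in CR (-0.71, adjusted p = 0.215), with all CR arrays below the control. Like *Tyrobp*, *Hbb* was highest at 10%, lowest in the control and second lowest at 30% (these blood genes were chosen after their values were seen). The part of blood or border macrophages in the rise of *Tyrobp* was not tested. The sums for astrocytes, oligodendrocytes, neurons and endothelial cells were within 25020.6 to 26334, 23752.8 to 25805.6, 17007 to 18613 and 2307.5 to 2537.1 in CR, against 26852.6, 26028.3, 18576.3 and 2496.6 in the control. Each sum is set mainly by its brightest probe sets, and single markers of these cells did pass.

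Of 9 tested oligodendrocyte genes, 0 rose and 4 fell, with a median of -0.30: the myelin genes *Ugt8* (-1.36), *Mog* (-1.35), *Mal* (-1.26) and *Opalin* (-0.64). Over all tested probe sets 14.5% were higher and 11.0% lower, or 10.5% and 15.4% where the control signal was 100 or more. The astrocyte list (9 tested, median -0.29) had 1 gene that rose, the gap junction gene *Gja1* (0.40), and 2 that fell, *Ntsr2* (-0.74) and *Aldh1l1* (-0.89). In the endothelial list (10 tested, median 0.10) *Tie1* (1.34, from a signal of 49.4) and the glucose transporter gene *Slc2a1* (0.58) rose, whereas the claudin of tight junctions, *Cldn5*, fell (-1.36). In the neuronal list (9 tested, median -0.12) *Eno2* (0.38) and *Nefm* (0.44) rose, whereas *Stmn2* (-0.41) and *Tubb3* (-0.64) fell. Their part in the differences of the microglia genes was not tested.

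**Figure D5:**
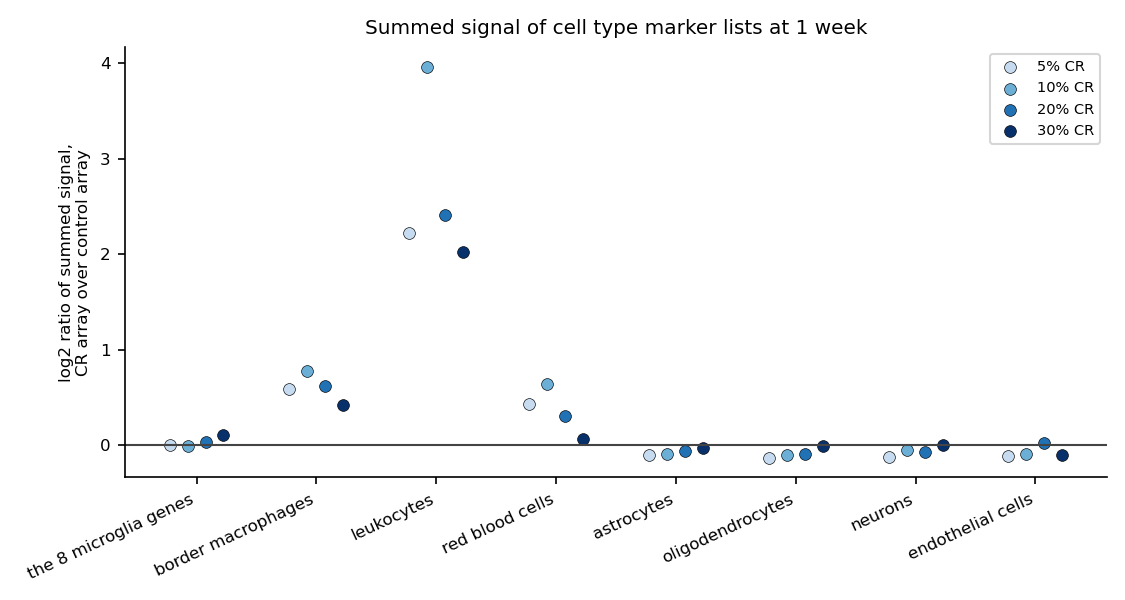
Log2 ratio of the summed signal of each marker list on a CR array over that on the control array, with circles darker at higher CR and 0 marking equality. Circles of the 8 microglia genes lie near 0, and those of the leukocyte list lie highest, with its sum at 1098.1 on the 10% array. Of the 11 leukocyte genes, 10 were below the filter.

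No trend with the level of restriction was detectable for the microglia genes with 4 CR arrays. The trend over 5, 10, 20 and 30% CR, fitted by limma on the 4 CR arrays, had an adjusted p of 0.999 for each of the 6 tested probe sets, and 0 of the 6 had an unadjusted p under 0.05. It called 0% of all probe sets, with 743 at an unadjusted p under 0.05 and a smallest adjusted p of 0.452. As single ratios with no test, the tested members past 1.5-fold in either direction were 1 of 6 at 5% CR, 2 of 6 at 10%, 2 of 6 at 20% and 0 of 6 at 30%. Over all tested probe sets those shares were 35.4, 38.5, 39.7 and 33.2%. *Tyrobp* was above 1.5-fold at 5, 10 and 20% CR, and *C1qa* was past it downward at 10 and 20%. Of the 6, 2 had all 4 CR arrays above the control and 1 had all 4 below, against 37.1% and 33.1% of all tested probe sets. All these comparisons share the same control array.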

How the data were processed

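RNA of 5 rats per group was pooled and measured on 1 Affymetrix rat array. The authors deposited a linear signal intensity per probe set, made with MAS5 per the submitters' processing notes. Each 1 week array had the same mean (158.85) after trimming 2% at each end. Genes were named from the platform annotation: 20832 probe sets had 1 symbol, 436 several and 9831 none. No detection calls were used, so a signal near background cannot be told from an absent transcript.

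Log2 signals (4 zeros set to 0.1) of the 5 arrays of 1 week were fitted with limma 3.58.1 in R 4.3.3 (lmFit and eBayes with an intensity trend), 4 CR arrays against 1 control array, with 3 residual degrees of freedom. Probe sets, without 57 control probe sets, were kept above the 50th percentile of mean log2 signal, and p-values were adjusted over all 15521 by Benjamini-Hochberg, with a threshold of 0.05. The trend used the 4 CR arrays (2 residual degrees of freedom). Figures and motif counts used Python 3.11.15 (pandas 2.3.3, matplotlib 3.10.9) and RefSeq promoters of GRCr8, which held 5 of the 8 members. The fit was tested on simulated data in which the control varied as the CR arrays do. That test therefore cannot show how a control array that stands apart affects the calls.

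Members, lists and tests were chosen with earlier results of these data known. All members were named with every probe set. From the other lists, read on the brightest probe set per gene, genes that passed were named, and direct partners of a member and some blood genes as values. Alternatives were median, quantile and cyclic loess scaling, no filter, a filter at the 75th percentile or with control and CR weighted equally, a pseudocount of 13.7, robust eBayes or eBayes with no trend, each CR array left out, the control as 0% in the trend, and 2-fold in place of 1.5-fold. The arrays of 1 month were left out because their rows could not be named.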

Additional observations from a re-analysis of the deposited data

Results flagged for a closer look

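The 58 probe sets of the microglia genes and of a chosen set of partner, myeloid and blood genes were searched, each over the 4 CR arrays. A single one had an array far from the other 3. Genes of the astrocyte, oligodendrocyte, neuronal and endothelial lists were not searched in this way. In the dim probe set of *Apoe*, 1371288_at, the 30% CR array read 19.9 against 51.2 to 59.5 on the other CR arrays, a gap of 0.863 of the range on the log2 scale. The control array read 0.4 and the probe set was below the filter. Chance gives such a gap in about 1 of 20 groups, and 0 of the 11 microglia probe sets had one.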

How the results depend on the processing

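Median scaling moved every difference by -0.44, and 1023 probe sets were then higher and 5024 lower of 6047 called, 16.9% and 83.1% in place of 56.7% and 43.3% of 3958. With no filter 6685 were called, 4943 of them higher. With the filter at the 75th percentile 1295 were higher, and without the intensity trend 1006 were lower. Of the microglia genes, 1 was higher and 0 lower. Quantile scaling, cyclic loess and the 75th percentile filter gave 2 higher, median scaling and the fit without the intensity trend gave 0, and median scaling gave 1 lower. Leaving out each CR array in turn left 1 higher and 0 to 1 lower, the latter *C1qa* without the 30% array (-0.52, adjusted p = 0.0419). At 2-fold, 0, 1 and 1 members were past the fold at 5, 10 and 20% CR. Signs turned with median scaling for *Csf1r* (-0.34), *Fabp5* (-0.018) and *B2m* (-0.13), and for *P2ry12* probe set 1380822_at with quantile scaling (0.073), cyclic loess (0.060) and between CR arrays left out (-0.040 to 0.071, the highest without the 10% array). The causes were not tested. *Csf1*, *Clu*, *Cd9* and *Ctsb* passed under all 13 alternatives. No paired analysis was possible because each group has 1 array. *Cx3cr1*, *Trem2* and the dim probe sets of *Aif1* and *P2ry12* were below the filter and could be fitted only without it.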
